A study of Mus musculus with 24 samples.

Results

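The comparison described here was a difference of differences: the effect of *Tbx1* loss in the anterior heart field (AHF) minus the effect of the same loss in embryos that had also lost 1 *β-catenin* allele in that tissue. It used 16 of the 24 arrays of the series, 4 for each of 4 groups, and was computed for 19938 genes. Every array held RNA of microdissected AHF from pooled mouse embryos at embryonic day 9.5, with 19 to 21 somite pairs, hybridized to the Affymetrix Mouse Gene ST 1.0 array. The other 8 arrays belong to an experiment on *β-catenin* and entered 1 alternative fit only.

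The mutants called *Tbx1 LOF* (labelled Tbx1 KO) carried the *Mef2c-AHF-Cre* transgene with Tbx1 f/- or Tbx1 f/f, and which of the 2 genotypes each array holds is not given. The rescue mutants (labelled Rescue KO) had the same *Cre* and the same *Tbx1* genotypes plus 1 floxed *β-catenin* allele. Floxed alleles of both genes were recombined only where *Mef2c-AHF-Cre* was active. The null *Tbx1* allele of Tbx1 f/- embryos was inherited and so present in all their cells, inside and outside that domain. Each mutant group had controls of its own, called Tbx1 control and rescue control. The methods give the controls as Tbx1 f/+ and as Tbx1 f/+;β-catenin f/+, both without *Cre*, whereas the submitters' protocol text names wild-type and *Cre*-positive Tbx1 f/+ littermates, and these sources leave the controls' genotype undecided. The dissected tissue was pharyngeal arches 2 to 6 and also held cells outside the lineage of this *Cre*, such as ectoderm, endoderm and neural crest. *Tbx1 LOF* and rescue embryos came from separate crosses, rescue with females of an inbred Tbx1 f/f;β-catenin f/f line, and also from a shared cross with Tbx1 f/+;β-catenin f/+ females in which they were littermates. Neither the cross nor the hybridization batch of each array is given in the sources used here, and their part in the difference was not tested. Each mutant group was first set against its own controls.

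*Tbx1* encodes a T-box transcription factor of the pharyngeal mesoderm that is known to hold progenitors of the outflow tract in a proliferating, undifferentiated state. *β-catenin*, encoded by *Ctnnb1*, joins TCF/LEF factors in the nucleus when canonical Wnt signals arrive, and it also links cadherins to actin at cell junctions. Cells of the AHF are added to the outflow tract and right ventricle, and on joining the heart tube they switch on contractile proteins.

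All effects below are log2 differences between the mean of the mutants and the mean of their controls, so that 1 equals a 2-fold difference, and ± gives the standard error of the limma fit to the 16 arrays. Rescue effects carry the 95% confidence interval. A gene was called normalized when *Tbx1 LOF* changed it at least 1.3-fold with an unadjusted p under 0.05, when it did not pass that p in rescue, and when the effects differed at that p in the direction of the *Tbx1 LOF* effect. It was called retained when rescue passed in the same direction, overshooting when rescue passed in the opposite direction, and unresolved otherwise. Since the *Tbx1 LOF* effect chose the genes, the difference is not independent of the choice, and only the rescue effect is.

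The 2 targeted genes were read first. *Tbx1* was at 10.98, 11.28, 11.43 and 11.40 in *Tbx1 LOF* arrays 1 to 4, 11.91, 11.77, 11.98 and 11.99 in Tbx1 control, 11.39, 11.49, 11.51 and 11.49 in rescue and 11.83, 11.95, 11.75 and 11.58 in rescue control. The groups did not overlap in either experiment, and signal remained in both mutant groups. The *Tbx1 LOF* effect was -0.64 ± 0.09 (limma, Benjamini-Hochberg adjusted p = 0.0134), the rescue effect was -0.31 (interval -0.50 to -0.11, unadjusted p = 0.00405), and the difference was -0.34 ± 0.13 (unadjusted p = 0.0203). *Tbx1* RNA was thus lowered less in rescue than in *Tbx1 LOF*. Without rescue control array 4 that difference was -0.27 (unadjusted p = 0.0505). *Ctnnb1* was at 13.30, 13.33, 13.10 and 13.13 in *Tbx1 LOF* arrays 1 to 4, 13.39, 13.29, 13.16 and 13.16 in Tbx1 control, 13.14, 13.12, 13.11 and 13.14 in rescue and 13.19, 13.16, 13.16 and 13.20 in rescue control. All 4 rescue arrays lay just below their controls, and the rescue effect was -0.05 (interval -0.18 to 0.08, unadjusted p = 0.434), with a difference between the effects of 0.01 ± 0.09. On the whole dissected tissue these arrays therefore gave no detectable fall of *Ctnnb1* RNA in rescue. The array does not tell the floxed allele from its recombined form, and whether its probes cover the deleted exons was not examined.

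Array medians lay between 8.02 and 8.14. Among markers of the tissue, the 8 fixed AHF genes were detected at percentiles 62.3 (*Fgf10*) to 92.8 (*Tbx1*) of all genes. The summed level of the 7 heart tube myocardium markers was 14.69 to 14.95 on the log2 scale in *Tbx1 LOF*, 13.88 to 14.45 in Tbx1 control, 14.03 to 14.41 in rescue and 13.62 to 14.48 in rescue control. This sum was higher in all 4 *Tbx1 LOF* arrays than in any of the other 12, whereas *Nppa*, *Myh7* and *Myl7* taken singly overlapped. The dissection excluded the heart tube, and whether its rim was included to differing degrees was not tested. In whole tissue, a larger share of muscle cells and more muscle RNA per cell cannot be told apart.

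Most genes that *Tbx1 LOF* had raised had smaller effects in rescue, where 1 *β-catenin* allele was also lost. Choosing genes by their *Tbx1 LOF* effect favours this outcome by itself, so it is a description. Sarcomere genes made up 28 of those 149 raised genes. *Fgf10*, *Nrg1*, *Gfra1* and *Tbx1* itself were still below their controls in rescue. Of these, *Nrg1*, *Gfra1* and *Tbx1* were lowered less than in *Tbx1 LOF*, at unadjusted p under 0.05 for the difference. No single gene passed the adjusted threshold for the difference, whose lowest adjusted p was 1. At adjusted p under 0.05 limma therefore called 0 of 19938 genes for the difference (0%), 8 for *Tbx1 LOF* (0.0401%) and 0 for rescue (0%). At unadjusted p under 0.05 it called 464 genes for the difference, 975 for *Tbx1 LOF* and 317 for rescue, each under the 5% of genes that this threshold alone lets through. By direction, 306 genes were higher and 158 lower in the difference (1.53% and 0.792%), 575 higher and 400 lower in *Tbx1 LOF* (2.88% and 2.01%), and 95 higher and 222 lower in rescue (0.476% and 1.11%). With a 1.5-fold difference required as well, 37 genes passed for the difference (0.186%), 20 higher and 17 lower. Another fit took same-numbered arrays of the Tbx1 experiment as a replicate block, a pairing that the labels do not give. In it 792 genes (3.97%) passed for the difference at unadjusted p under 0.05. At adjusted p under 0.05, 88 passed for *Tbx1 LOF*, of which 69 were higher and 19 lower. With a term for arrays 1 and 2 against 3 and 4 instead, 753 passed for the difference at unadjusted p under 0.05. Single arrays moved these counts. Where 20 genes were higher, 10 to 13 passed without *Tbx1 LOF* array 1, Tbx1 control array 4 or rescue control array 2, and 31 to 38 passed without *Tbx1 LOF* array 4, Tbx1 control array 2 or rescue control arrays 3 or 4. Where 17 were lower, 5 to 11 passed without *Tbx1 LOF* arrays 1 or 3, Tbx1 control arrays 1 or 3, rescue array 3 or rescue control arrays 2 or 3, and 50 passed without *Tbx1 LOF* array 2. The 8 adjusted calls in *Tbx1 LOF* became 1 higher and 0 lower without Tbx1 control array 4, and 44 higher and 29 lower without *Tbx1 LOF* array 2. In the latter fit 1 gene passed the adjusted threshold for the difference, and without rescue control array 4, 1 passed it for rescue.

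The 8 genes that passed the adjusted threshold in *Tbx1 LOF* fell on both sides of the classification. *Des* (desmin, the intermediate filament of muscle), *Mical2* (an actin-oxidizing enzyme) and *Ppp1r3c* (a glycogen-targeting subunit of protein phosphatase) were raised and normalized. *Aqp7* (a glycerol channel), *Tecrl* (a membrane protein of cardiac endoplasmic reticulum), *Tbx1*, *Nrg1* (a ligand of ErbB receptors) and *Gfra1* (the GDNF co-receptor) were retained. *Mical2* and *Ppp1r3c* fall outside the rule for named genes and were chosen after their values were seen. *Ppp1r3c* gave the clearest contrast, at 0.55 ± 0.09 in *Tbx1 LOF* and 0.02 (interval -0.16 to 0.21) in rescue, a difference of 0.53 ± 0.13 (unadjusted p = 0.000671) that passed without any 1 of the 16 arrays.

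**Figure D1:**
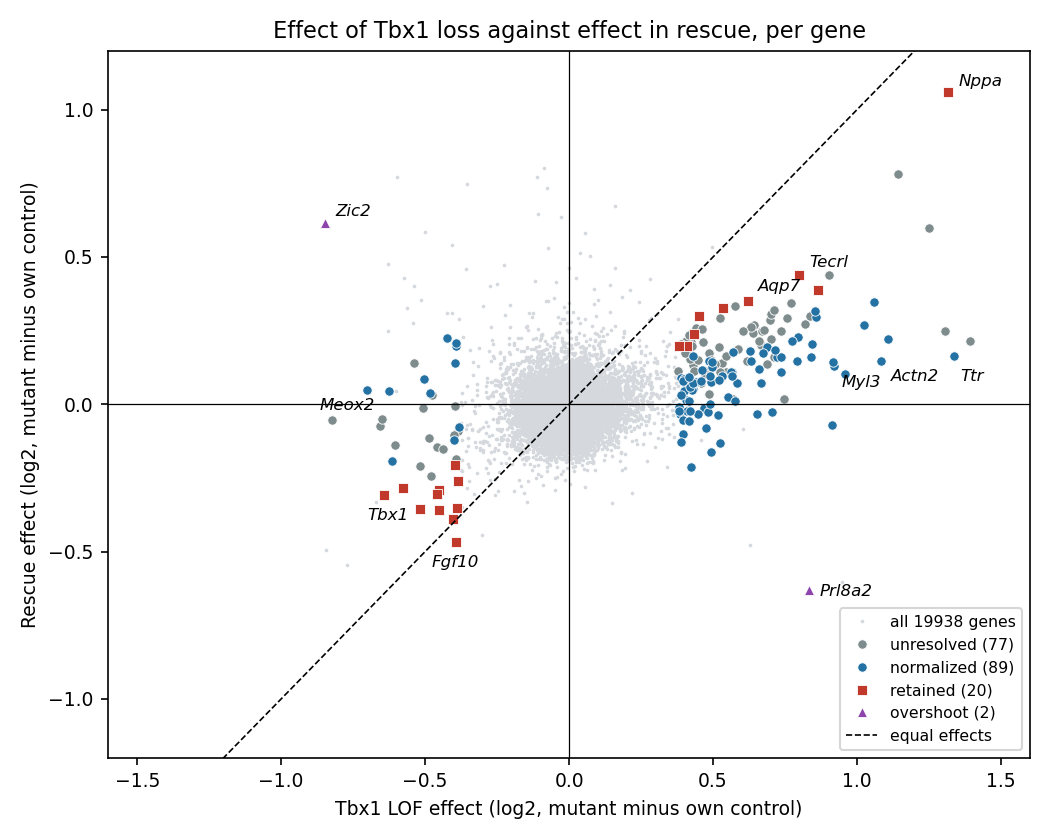
Effect in rescue (vertical axis, log2) against the effect in *Tbx1 LOF* (horizontal axis, log2) for 19938 genes, each as mutants minus their own controls. Coloured points are the 188 genes chosen in *Tbx1 LOF* by class, and most of them lie between the horizontal zero line and the dashed line of equal effects.

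Genes raised in *Tbx1 LOF* by these criteria numbered 149, with a median effect of 0.53. Their median rescue effect was 0.15. The rescue effect was closer to 0 than the *Tbx1 LOF* effect in 149 of 149 genes and under 50% of it in 132, and 22 had the opposite sign. As the genes were chosen by their *Tbx1 LOF* effect, these counts are a description. By class, 78 were normalized, 9 retained, 1 overshooting and 61 unresolved. Without rescue control array 2, the 78 and 9 became 46 and 40, and without *Tbx1 LOF* array 1 the 78 became 39. Retained genes numbered 16 without *Tbx1 LOF* array 2 and 15 without rescue array 1, and 14 were with the replicate block in the Tbx1 experiment. In the fit to 24 arrays 16 were normalized and 4 retained, and with array weights 126 and 28.

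Genes lowered in *Tbx1 LOF* numbered 39, with a median of -0.46, and their median rescue effect was -0.11. Of these, 11 were normalized, 11 retained, 1 overshooting and 16 unresolved, and the rescue effect was closer to 0 in 38. This set was less stable. Without *Tbx1 LOF* array 2 the median rescue effect of the lowered genes was 0.04 with 65 genes normalized, without *Tbx1 LOF* array 1 it was -0.20 with 6, without Tbx1 control array 1 it was -0.19 with 6, and without Tbx1 control arrays 3 or 4 the normalized genes numbered 18 and 26. In addition, the 2 mutant groups hardly differed for the 39 lowered genes, with a median of -0.04 for *Tbx1 LOF* minus rescue, while Tbx1 control exceeded rescue control by 0.27. For the 149 raised genes the mutants differed by 0.56 and the controls by 0.13.

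**Figure D2:**
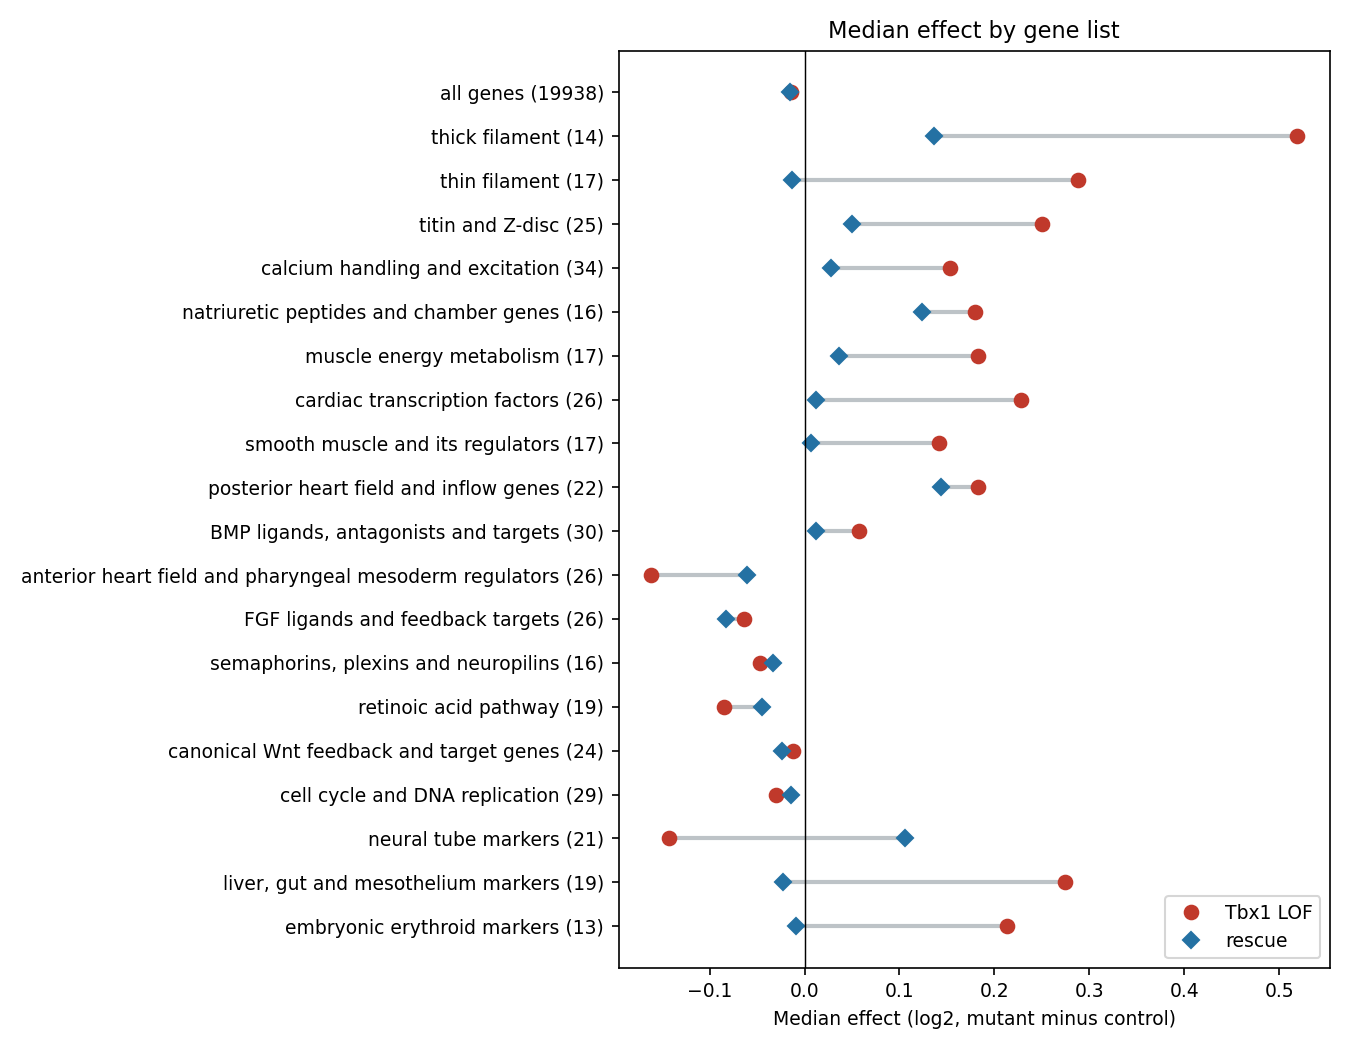
Median effect over the measured members of each gene group and over all genes (number of genes in parentheses), in *Tbx1 LOF* (circles) and in rescue (diamonds), on the log2 scale with mutants minus controls. The 3 sarcomere lists lie at 0.25 to 0.52 in *Tbx1 LOF* and at -0.01 to 0.14 in rescue, and the median over all genes is -0.01 and -0.02.

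Most sarcomere genes rose in *Tbx1 LOF* and, with 1 exception, *Pdlim5*, did not pass as higher in rescue. Of 56 measured genes of thick filament, thin filament, titin and Z-disc, 34 were higher and 1 lower in *Tbx1 LOF* at unadjusted p under 0.05, 1 was higher and 0 lower in rescue, and 19 were higher and 0 lower for the difference. The difference was above 0 in 52 of the 56, and in 10376 of all 19938 genes. Among all genes, 2.88% were higher in *Tbx1 LOF*, 0.476% in rescue and 1.53% for the difference. Their median effect was 0.37 in *Tbx1 LOF* and 0.01 in rescue with a median difference of 0.33, against -0.01, -0.02 and 0.00 over all genes. Of the 28 sarcomere genes that met the choice in *Tbx1 LOF*, 16 were normalized, 12 unresolved and 0 retained. These counts depended on single arrays. Without rescue control array 2, 13 sarcomere genes passed for the difference, 11 passed as higher in rescue and the median difference was 0.21. Without Tbx1 control array 4, 12 passed, and in the fit to all 24 arrays 1 passed with the same median.

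The genes of this group with the largest differences were *Actn2* (α-actinin of the Z-disc), *Smpx* (a small muscle protein at the costamere), *Myl3* (the ventricular essential myosin light chain) and *Tnnc1* (cardiac troponin C, the calcium sensor of the thin filament). *Myl3* was at 10.24, 9.98, 10.35 and 9.89 in *Tbx1 LOF* arrays 1 to 4, 9.29, 9.04, 9.52 and 8.92 in Tbx1 control, 9.18, 9.39, 8.86 and 9.73 in rescue and 9.39, 9.61, 8.75 and 8.90 in rescue control. All 4 *Tbx1 LOF* arrays lay above the other 12 arrays, and rescue overlapped its controls. *Actn2* was at 11.10, 10.90, 10.87 and 10.33 in *Tbx1 LOF* arrays 1 to 4, 9.99, 9.94, 9.80 and 9.12 in Tbx1 control, 9.16, 9.72, 9.17 and 9.87 in rescue and 9.72, 9.83, 8.80 and 8.97 in rescue control. The *Tbx1 LOF* arrays did not overlap their controls, while rescue and rescue control overlapped. *Tnnc1* was at 10.79, 10.67, 11.07 and 10.42 in *Tbx1 LOF* arrays 1 to 4, 9.87, 9.97, 10.05 and 9.40 in Tbx1 control, 9.49, 9.88, 9.74 and 10.02 in rescue and 9.76, 10.29, 9.31 and 9.20 in rescue control, and its rescue arrays all lay within the range of their controls. The effects of *Myl3* were 0.92 ± 0.20 in *Tbx1 LOF* and 0.13 (interval -0.29 to 0.55) in rescue, a difference of 0.79 ± 0.28 (unadjusted p = 0.0122). For *Tnnc1* they were 0.92 ± 0.21 and 0.14 (interval -0.29 to 0.58), a difference of 0.77 ± 0.29 (unadjusted p = 0.0175). *Actn2* and *Smpx* differed by 0.94 ± 0.35 and 0.89 ± 0.33 between the experiments. All 4 passed for the difference without any 1 array, at unadjusted p, and none passed in the fit to 24 arrays, where p was 0.11 for *Myl3*, 0.0653 for *Tnnc1*, 0.0796 for *Actn2* and 0.149 for *Smpx*. Without rescue control array 2, *Smpx* passed as higher in rescue as well. *Myl2*, the ventricular regulatory light chain, differed by 0.56 ± 0.14 (unadjusted p = 0.00141), with 0.52 ± 0.10 in *Tbx1 LOF* and -0.04 (interval -0.25 to 0.18) in rescue.

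Several chamber myosins and troponins kept intermediate rescue effects. *Myh6*, the atrial α-myosin heavy chain, had 1.14 ± 0.37 in *Tbx1 LOF* and 0.78 (interval 0.00 to 1.56) in rescue, and the difference of 0.36 ± 0.52 gave an unadjusted p of 0.498. *Tnni3* (cardiac troponin I) had 1.25 ± 0.33 and 0.60 (interval -0.09 to 1.29), and *Tnnt2* (cardiac troponin T) had 0.66 ± 0.16 and 0.21 (interval -0.13 to 0.56). These 3 were unresolved, and all 3 passed as higher in rescue without rescue control array 2. *Myh6* and *Tnni3* also did so without rescue array 3, and *Myh6* without Tbx1 control array 4. The mean of the 56 sarcomere genes, centred per gene, was 0.42, 0.25, 0.44 and 0.16 in *Tbx1 LOF* and 0.01, -0.04, 0.00 and -0.27 in Tbx1 control. It was -0.17, -0.02, -0.18 and 0.03 in rescue and -0.16, 0.09, -0.27 and -0.29 in rescue control. Rescue control array 2 was thus the highest of its group, and rescue overlapped with its controls.

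**Figure D3:**
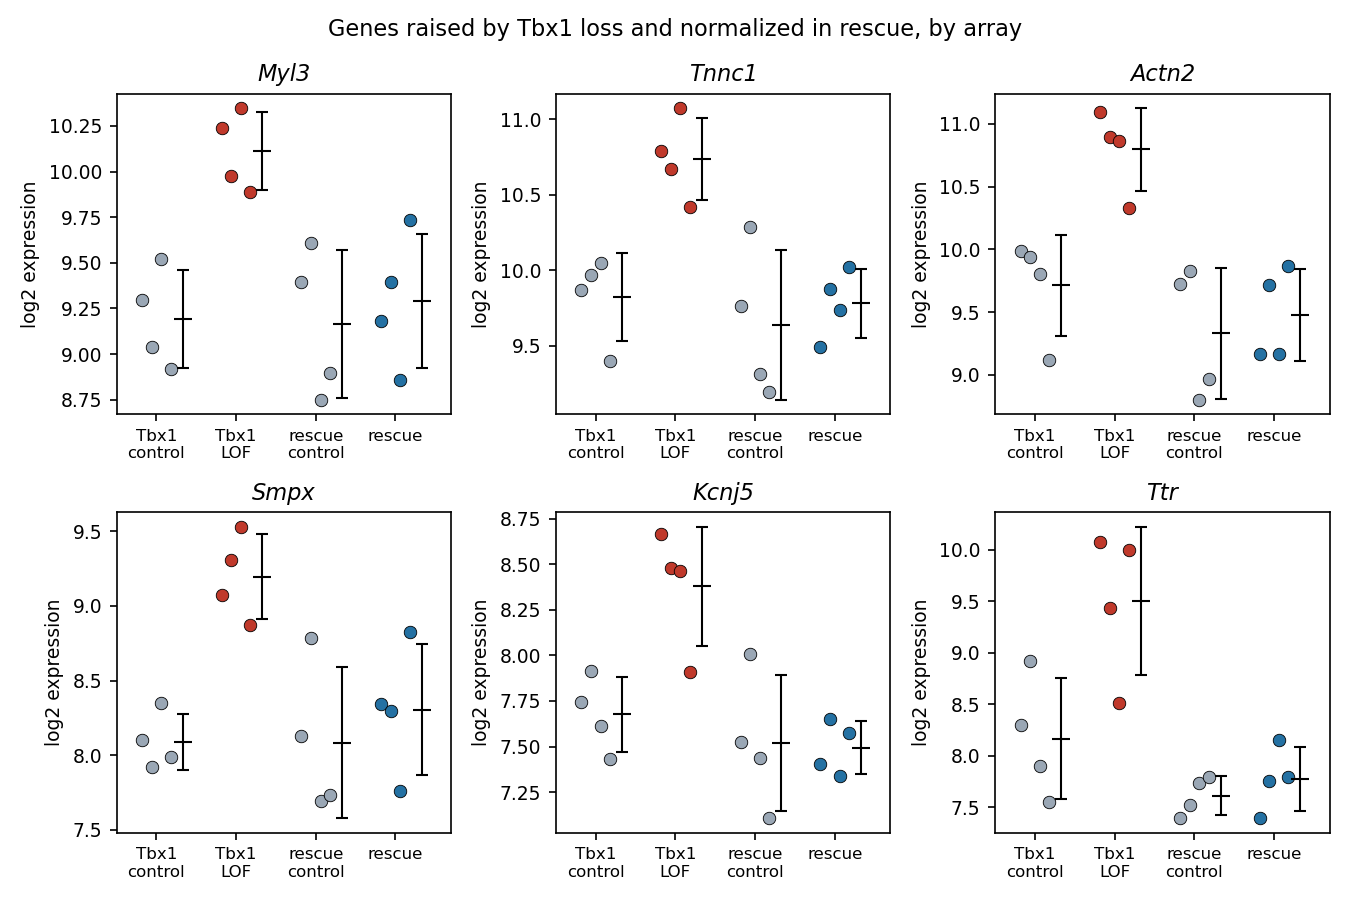
Log2 expression in every array of 6 genes raised by *Tbx1* loss and normalized in rescue, with the mean ± SD of each group of 4. *Myl3*, *Tnnc1*, *Actn2* and *Smpx* lie above their controls in all 4 *Tbx1 LOF* arrays, and all 6 genes overlap between rescue and its controls.

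The CArG box is the site read by serum response factor, a regulator of contractile genes. In the 250 bases before the start of each gene (RefSeq, GRCm38.p6), searched on both strands, a CArG box stood in 1.25% of 15563 genes, in 6 of the 44 sarcomere genes with a sequence (13.6%) and in 5 of 61 raised normalized genes (8.2%). The TCF/LEF letters CTTTGAT stood in 2.87% of all genes, in 1 of 44 sarcomere genes (2.27%) and in 2 of 61 raised normalized genes (3.28%). The GATA letters AGATAA stood in 8.75% of all genes, in 8 of 44 (18.2%) and in 14 of 61 (23%). They also stood in 3 of 9 raised retained genes (33.3%), 3 of 7 lowered normalized (42.9%) and 1 of 10 lowered retained (10%). MEF2 sites stood in 0.495% of all genes, in 5 of 44 (11.4%) and in 4 of 61 (6.56%). The TEAD letters CATTCC stood in 11.4% of all genes, in 16 of 44 (36.4%) and in 10 of 61 (16.4%). The *Myl3* sequence is shown as a sarcomere gene with a CArG box, and *Ppp1r3c* as a gene with 2 TCF/LEF matches. Capitals mark the matches, which begin 85 bases before the start in *Myl3* and 129 and 92 bases before it in *Ppp1r3c*. A match is a description of the letters and not of a bound site. The windows are chr9:110763428-110763677 on the plus strand and chr19:36736605-36736854 on the minus strand.
Myl3: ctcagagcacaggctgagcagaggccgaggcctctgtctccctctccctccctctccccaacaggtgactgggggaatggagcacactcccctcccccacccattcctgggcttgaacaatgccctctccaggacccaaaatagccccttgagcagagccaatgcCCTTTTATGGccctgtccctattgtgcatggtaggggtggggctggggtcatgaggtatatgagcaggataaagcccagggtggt
Ppp1r3c: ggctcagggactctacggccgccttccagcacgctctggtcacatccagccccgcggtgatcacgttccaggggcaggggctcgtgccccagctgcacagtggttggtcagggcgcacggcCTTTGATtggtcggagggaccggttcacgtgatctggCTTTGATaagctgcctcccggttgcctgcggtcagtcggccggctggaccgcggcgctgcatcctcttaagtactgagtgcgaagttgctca

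Calcium handling and excitation genes had the same direction with smaller values. Of 34 measured, 17 were higher and 0 lower in *Tbx1 LOF*, 2 higher and 0 lower in rescue, and 6 higher and 0 lower for the difference at unadjusted p under 0.05 (11 and 0 with the replicate block in the Tbx1 experiment, 0 and 1 in the fit to 24 arrays). The 6 were *Ryr2* (the calcium release channel of the sarcoplasmic reticulum), *Slc8a1* (the sodium-calcium exchanger), *Kcnj5* and *Kcnh2* (potassium channels), and *Popdc2* and *Bves* (membrane proteins of the Popeye family). Of all genes, 2.88% were higher in *Tbx1 LOF*, 0.476% in rescue and 1.53% for the difference. Medians of the list were 0.15 in *Tbx1 LOF* and 0.03 in rescue. Without *Tbx1 LOF* array 1 or Tbx1 control array 4, 3 passed, and without rescue control array 2, 4 passed while 5 were higher in rescue. *Kcnj5* was at 8.67, 8.48, 8.46 and 7.91 in *Tbx1 LOF* arrays 1 to 4, 7.74, 7.92, 7.61 and 7.43 in Tbx1 control, 7.40, 7.65, 7.34 and 7.57 in rescue and 7.53, 8.01, 7.43 and 7.11 in rescue control. The lowest *Tbx1 LOF* array fell just below the highest of its controls, and rescue lay within the range of its controls. Its effects were 0.70 ± 0.17 in *Tbx1 LOF* and -0.03 (interval -0.39 to 0.34) in rescue, a difference of 0.73 ± 0.24 (unadjusted p = 0.00818) that passed without any 1 array. *Hcn4*, the pacemaker channel, was unresolved, with 0.70 ± 0.16 in *Tbx1 LOF* and 0.31 (interval -0.02 to 0.63) in rescue.

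Genes of muscle energy metabolism split into normalized, retained and opposed members. Of 17, 4 passed as higher for the difference and 0 as lower, against 1.53% and 0.792% of all genes. The 4 were *Fabp3* (a fatty acid carrier of muscle), *Cox7a1* (the muscle form of a cytochrome oxidase subunit), *Mb* (myoglobin) and *Aqp7*. *Fabp3* was at 8.77, 8.94, 9.20 and 8.80 in *Tbx1 LOF* arrays 1 to 4, 8.55, 8.58, 8.69 and 8.53 in Tbx1 control, 8.49, 8.43, 8.45 and 8.57 in rescue and 8.79, 8.84, 8.57 and 8.60 in rescue control. It lay above its controls in 4 of 4 *Tbx1 LOF* arrays and below its controls in 4 of 4 rescue arrays. The list's count was 2 in the fit to 24 arrays and with array weights, and 2 without *Tbx1 LOF* array 3, Tbx1 control array 2 or rescue arrays 2 or 3. The effects of *Fabp3* were 0.34 ± 0.08 in *Tbx1 LOF* and -0.21 (interval -0.39 to -0.03) in rescue, and their difference was 0.56 ± 0.12 (unadjusted p = 0.00026), which passed without any 1 array. The fall in rescue (unadjusted p = 0.0223) did not pass without rescue array 2 or without rescue control arrays 1 or 2. Over all genes, arrays did not overlap in *Tbx1 LOF* for 264 higher and 194 lower genes (1.32% and 0.973%) and in rescue for 147 higher and 446 lower genes (0.737% and 2.24%). Only 2 genes stood apart in both experiments in opposite directions, *Fabp3* and the homeobox gene *Barx2*, the latter with -0.14 ± 0.06 in *Tbx1 LOF* and 0.13 (interval 0.01 to 0.25) in rescue. *Barx2* was chosen after its values were seen, and its rescue effect did not pass without rescue arrays 2 or 3 or rescue control arrays 2 or 4.

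Smooth muscle genes that rose in *Tbx1 LOF* did not pass as higher in rescue, where only 0.476% of all genes did. For the difference 1.53% of all genes were higher. Of 17, 8 were higher in *Tbx1 LOF*, 0 higher and 1 lower in rescue, and 4 higher for the difference, with medians of 0.14 and 0.01. The 4 were *Acta2* (smooth muscle α-actin), *Tagln* (transgelin), *Cnn1* (calponin) and *Hspb7* (a small heat shock protein of muscle). *Cnn1* had 0.67 ± 0.15 in *Tbx1 LOF* and 0.07 (interval -0.24 to 0.38) in rescue, a difference of 0.59 ± 0.21 (unadjusted p = 0.0107). *Acta2* differed by 0.30 ± 0.11 (unadjusted p = 0.0138). For both genes the difference passed without any 1 array. In the fit to 24 arrays 1 of the 17 passed.

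Many cardiac transcription factors rose in *Tbx1 LOF* and none passed in rescue, where few of all genes passed (0.476% higher and 1.11% lower). Of 26, 12 were higher and 0 lower in *Tbx1 LOF*, 0 were higher or lower in rescue, and 6 were higher for the difference, *Gata4*, *Tbx20*, *Hand1*, *Hand2*, *Zfpm1* and *Zfpm2*. The first 4 are factors of heart tube and chamber formation, and the other 2 are partners of GATA factors. Over all genes 2.88% were higher in *Tbx1 LOF* and 1.53% for the difference. Medians of the list were 0.23 in *Tbx1 LOF* and 0.01 in rescue. *Hand1* had 0.48 ± 0.12 in *Tbx1 LOF* and -0.03 (interval -0.29 to 0.23) in rescue, with a difference of 0.51 ± 0.17 (unadjusted p = 0.00985), and *Tbx20* had 0.71 ± 0.14 and 0.19 (interval -0.11 to 0.48), with a difference of 0.53 ± 0.20 (unadjusted p = 0.0152). *Hand2* differed by 0.27 ± 0.09 (unadjusted p = 0.00869). These 3 differences passed without any 1 array. *Gata4* kept part of its increase, with 0.85 ± 0.16 in *Tbx1 LOF* and 0.32 (interval -0.02 to 0.66) in rescue. Its difference of 0.54 ± 0.23 (unadjusted p = 0.0315) did not pass in 7 of the 16 fits that left out an array, with values of 0.38 to 0.69, and without *Tbx1 LOF* array 1, Tbx1 control array 2 or rescue array 1 it passed as higher in rescue. *Zfpm1* and *Zfpm2* did not pass in 9 such fits each. Without *Tbx1 LOF* array 1, Tbx1 control array 1, rescue array 1 or rescue control array 2, 3 of the 26 factors passed for the difference, as they did in the fit to 24 arrays, and without *Tbx1 LOF* array 1, 4 were higher in rescue. *Tbx5*, a factor of the first heart field and inflow, was unresolved with 0.58 ± 0.17 and 0.34 (interval -0.02 to 0.69), a difference of 0.24 ± 0.24. *Gata6* had 0.43 ± 0.10 and 0.13 (interval -0.08 to 0.35), and its difference passed with the replicate block in the Tbx1 experiment (unadjusted p = 0.0266) and not without it (unadjusted p = 0.0524). *Smarcd3*, a subunit of a chromatin remodelling complex of the heart, differed by 0.26 ± 0.14 (unadjusted p = 0.0796). The study lists *Hand1*, *Zfpm2*, *Smarcd3* and *Tbx20* as not normalized in rescue, from its arrays and from qRT-PCR against Tbx1 f/+ controls. By the criteria used here 3 of these 4 were normalized, which differs from the study's reading. Of 9 measured genes that the study names as normalized, 6 were normalized here and 3 unresolved.

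Genes of the posterior heart field and inflow were split. *Wnt2*, a ligand of inflow mesoderm, was at 11.19, 10.51, 10.60 and 10.45 in *Tbx1 LOF* arrays 1 to 4, 10.12, 10.09, 9.69 and 9.75 in Tbx1 control, 9.69, 10.16, 10.22 and 10.05 in rescue and 9.69, 9.85, 9.78 and 9.93 in rescue control. The *Tbx1 LOF* arrays stood clear of their controls and rescue did not. The effects were 0.77 ± 0.15 and 0.22 (interval -0.10 to 0.53), a difference of 0.56 ± 0.21 (unadjusted p = 0.0179) that passed without any 1 array, and without rescue array 1 *Wnt2* also passed as higher in rescue. *Sfrp5*, a secreted Wnt inhibitor of the same region, had 1.02 ± 0.23 and 0.27 (interval -0.22 to 0.76), and its difference of 0.76 ± 0.33 did not pass in 8 of 16 fits that left out an array. *Osr1* and *Tbx18*, transcription factors of inflow mesoderm, had effects of about the same size in both experiments, and neither passed for the difference. *Osr1* had 0.38 ± 0.15 in *Tbx1 LOF* and 0.29 (interval -0.03 to 0.61) in rescue. *Tbx18* had 0.30 ± 0.24 and 0.31 (interval -0.20 to 0.81), and the interval of its difference was -0.72 to 0.71. *Nr2f1*, a nuclear receptor, and *Foxf2*, a forkhead factor, differed the other way, by -0.34 ± 0.12 and -0.42 ± 0.18. Of the 22 genes of this list, 9 were higher and 2 lower in *Tbx1 LOF*, 2 higher and 0 lower in rescue, and 4 higher and 2 lower for the difference (1 and 2 in the fit to 24 arrays, 6 and 4 with array weights). Among all genes 1.53% were higher and 0.792% lower for the difference. The median rescue effect of 0.14 was close to the 0.18 of *Tbx1 LOF*. Without rescue array 1, 7 of them were higher in rescue and 1 was higher for the difference, and without *Tbx1 LOF* array 1 these were 6 and 1. Without Tbx1 control array 3, 1 was higher for the difference, and without Tbx1 control arrays 1 or 4, rescue array 4 or rescue control array 2, 2 were.

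Among 30 BMP genes, 4 were higher for the difference at unadjusted p under 0.05, *Bmp2*, *Bmp10*, *Gdf2* and *Bambi*, and 1 was lower, *Fst*, which encodes follistatin, a secreted antagonist. Over all genes 1.53% were higher and 0.792% lower. In the fit to 24 arrays 2 BMP genes were higher and 1 lower. *Bmp10*, a ligand of the trabeculated heart chamber, had 0.57 ± 0.13 and 0.11 (interval -0.16 to 0.38), a difference of 0.46 ± 0.18 (unadjusted p = 0.022) that passed without any 1 array. Without *Tbx1 LOF* array 1, 1 BMP gene passed as higher, and without rescue array 1, rescue array 4 or rescue control array 2, 2 did. Among 11 neuregulin and ErbB genes, 1 was higher and 1 lower for the difference, and 0 passed in the fit to 24 arrays. The lower one was the ligand *Nrg1* (-0.19 ± 0.08, unadjusted p = 0.0287), which is also in the AHF list. The receptor *Erbb4* was the higher one, with 0.69 ± 0.14 and 0.20 (interval -0.09 to 0.48) and a difference of 0.49 ± 0.19 (unadjusted p = 0.0213), which without rescue control array 2 was 0.39 (unadjusted p = 0.0527).

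Canonical Wnt feedback and target genes were close to 0 in both experiments. Of 24, 2 were higher and 1 lower in *Tbx1 LOF*, 0 were higher or lower in rescue, and 1 was higher and 1 lower for the difference, with medians of -0.01, -0.02 and 0.01. The 2 were *Bambi*, a BMP and Wnt modulator, and *Tcf7l1*, a repressor of the pathway, and 0 to 3 were higher in the fits that left out an array. *Axin2*, a common readout of the pathway, had -0.05 ± 0.06 in *Tbx1 LOF* and -0.02 (interval -0.15 to 0.12) in rescue. *Lef1*, a nuclear partner of β-catenin, had -0.07 ± 0.06 and -0.12 (interval -0.25 to 0.01), and *Sp5*, a zinc finger target of the pathway, had -0.09 ± 0.08 and -0.06 (interval -0.22 to 0.10). Of 26 genes of β-catenin, its junction partners and the destruction complex, 0 passed in either experiment or for the difference. Cell cycle (29 genes), ribosomal protein (23) and oxidative phosphorylation (29) lists had 0 genes past the threshold for the difference. Over all genes 1.53% were higher and 0.792% lower for the difference. Those shares were 2.88% and 2.01% in *Tbx1 LOF* and 0.476% and 1.11% in rescue. In lists of this size, counts of 0 or 1 for the difference lie near the shares over all genes and are a description only.

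Part of the AHF list stayed low in rescue. Of 26 regulators of AHF and pharyngeal mesoderm, 12 were lower in *Tbx1 LOF* and 6 in rescue, and the same 6 were lower in both, *Tbx1*, *Fgf10*, *Tlx1*, *Nrg1*, *Sema3c* and *Wnt5a*. Over all genes 49 were lower in both, of 400 lower in *Tbx1 LOF* and 222 in rescue. The 2 experiments share no array. *Fgf10*, an FGF ligand that marks the AHF, was at 9.54, 9.45, 9.03 and 9.19 in *Tbx1 LOF* arrays 1 to 4, 9.60, 9.73, 9.78 and 9.67 in Tbx1 control, 9.10, 9.37, 9.10 and 9.03 in rescue and 9.63, 9.95, 9.44 and 9.46 in rescue control. Mutants lay below controls in every array of both experiments. The effects were -0.39 ± 0.12 in *Tbx1 LOF* and -0.47 (interval -0.72 to -0.22) in rescue (unadjusted p = 0.0011), and the interval of the difference was -0.28 to 0.43, so a change of either sign within it is not excluded. *Nrg1* was at 8.86, 8.93, 8.80 and 8.98 in *Tbx1 LOF* arrays 1 to 4, 9.31, 9.20, 9.30 and 9.34 in Tbx1 control, 9.03, 9.06, 8.94 and 8.95 in rescue and 9.19, 9.21, 9.31 and 9.10 in rescue control, again with no overlap in either experiment. Its rescue effect was -0.21 (interval -0.33 to -0.09, unadjusted p = 0.00183) against -0.40 ± 0.06 in *Tbx1 LOF* (limma, adjusted p = 0.0134). *Gfra1* had -0.29 (interval -0.45 to -0.12) in rescue (unadjusted p = 0.00203) against -0.58 ± 0.08 (adjusted p = 0.0128), and the difference of -0.29 ± 0.11 (unadjusted p = 0.0177) passed without any 1 array. For *Nrg1* the difference of -0.19 ± 0.08 did not pass in 5 such fits. *Tlx1*, a homeobox gene, had -0.39 ± 0.11 and -0.35 (interval -0.60 to -0.11), and *Sema3c*, a semaphorin of the outflow tract, had -0.28 ± 0.09 and -0.23 (interval -0.43 to -0.04). The rescue effects of *Fgf10*, *Nrg1*, *Gfra1*, *Tlx1* and *Tbx1* passed without any 1 array, that of *Sema3c* did not without rescue array 2 or rescue control array 1, and that of *Wnt5a* did not in 5 such fits. Without rescue array 2 or rescue control array 1, 4 of the 26 genes were lower in rescue.

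The other lowered and retained genes included *Etv2* (an ETS factor of endothelial and blood progenitors), *Rxrg* (a retinoid X receptor), *Prkcb* (a protein kinase C) and *Pla2g7* (a secreted phospholipase). Their *Tbx1 LOF* effects were -0.45 ± 0.09, -0.45 ± 0.11, -0.52 ± 0.09 and -0.46 ± 0.10. In rescue, *Etv2* had -0.29 (interval -0.48 to -0.10), *Rxrg* -0.36 (interval -0.59 to -0.12), *Prkcb* -0.35 (interval -0.56 to -0.15) and *Pla2g7* -0.31 (interval -0.51 to -0.10). All 4 rescue effects passed at unadjusted p without any 1 array, and none of the 4 passed for the difference.

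**Figure D4:**
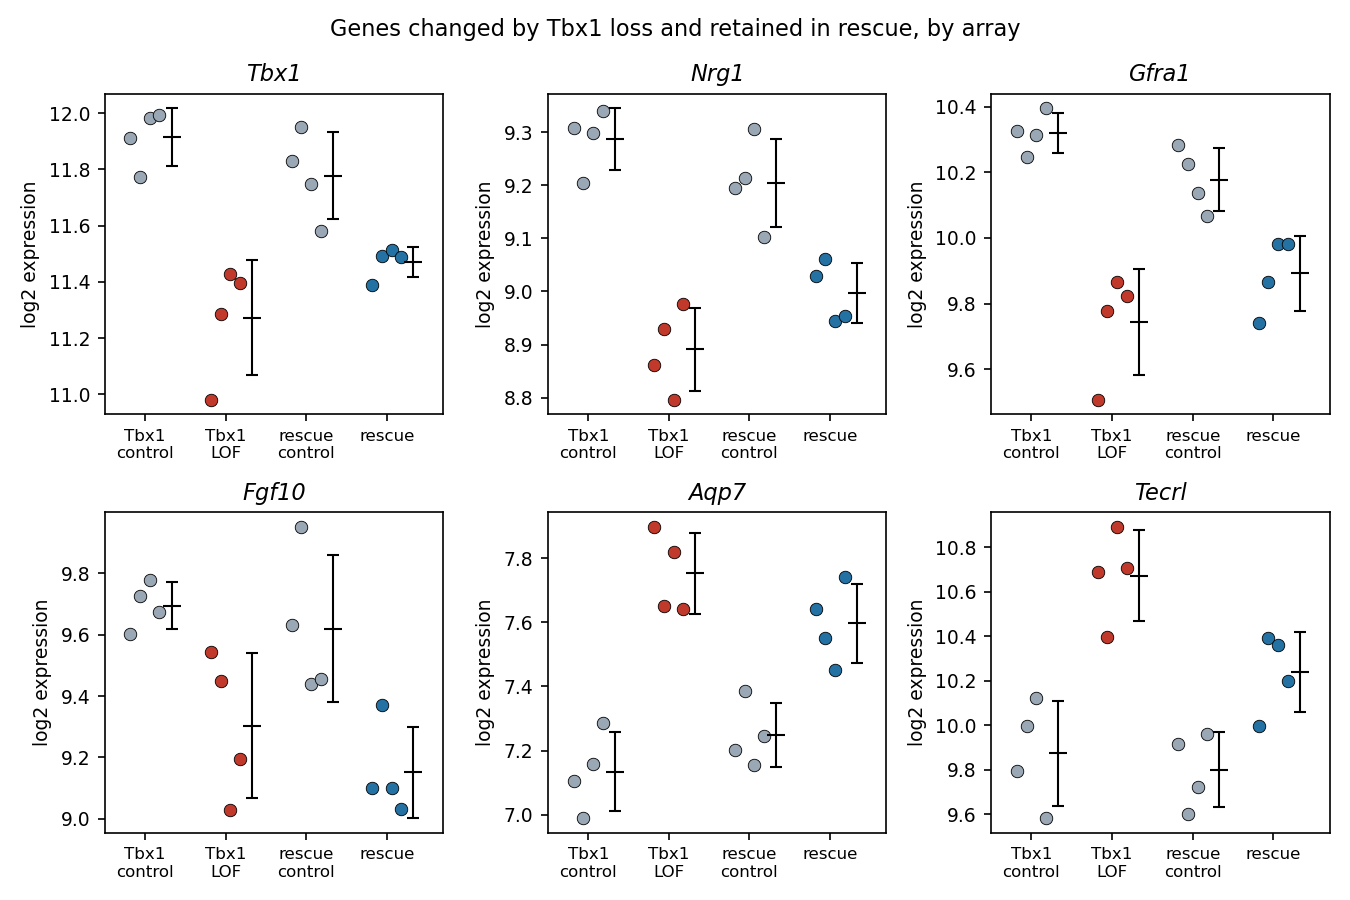
Log2 expression in every array of 6 genes changed by *Tbx1* loss and retained in rescue, with the mean ± SD of each group of 4. For all 6 genes, *Tbx1 LOF* and rescue arrays both lie clear of their own controls, and *Fgf10* alone has a larger mean effect in rescue.

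For the difference 8 of the 26 AHF genes were lower and 1 higher at unadjusted p under 0.05, the lower ones being *Tbx1*, *Nrg1*, *Six2*, *Eya1*, *Foxc1*, *Foxc2*, *Ebf1* and *Ebf3*. *Six2* and *Eya1*, partners in a transcription complex of pharyngeal progenitors, had -0.38 ± 0.08 and -0.24 ± 0.06 in *Tbx1 LOF* and -0.08 (interval -0.26 to 0.10) and -0.05 (interval -0.16 to 0.07) in rescue. The difference of *Six2* did not pass without rescue control array 4, and that of *Eya1* did not in 6 such fits. *Ebf1*, an early B-cell factor of mesenchyme, had -0.39 ± 0.17 and 0.21 (interval -0.15 to 0.56), and its difference did not pass without *Tbx1 LOF* array 1 or Tbx1 control array 1. Among all genes 0.792% were lower for the difference. The count of 8 depended on single arrays. It was 3 without *Tbx1 LOF* array 1, 4 without Tbx1 control arrays 1 or 4 or rescue control arrays 2 or 4, 5 without *Tbx1 LOF* array 3, Tbx1 control array 3, rescue control array 3 or rescue arrays 1, 3 or 4, and 5 with the replicate block in the Tbx1 experiment and in the fit to 24 arrays. *Isl1*, the LIM factor of the whole second heart field, had 0.03 ± 0.07 and -0.03 (interval -0.18 to 0.12).

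Among the raised and retained genes, *Nppa*, the atrial natriuretic peptide, had the largest effects. It was at 9.55, 9.83, 10.12 and 9.40 in *Tbx1 LOF* arrays 1 to 4, 8.44, 8.75, 8.73 and 7.71 in Tbx1 control, 9.64, 8.83, 8.02 and 9.64 in rescue and 7.27, 9.54, 7.67 and 7.40 in rescue control. All 4 *Tbx1 LOF* arrays lay above their controls, rescue arrays 1 and 4 were as high, and rescue control array 2 stood near them while the other 3 were low. The effects were 1.32 ± 0.44 in *Tbx1 LOF* and 1.06 (interval 0.14 to 1.98) in rescue (unadjusted p = 0.0265), and the latter did not pass without rescue arrays 1 or 4 or rescue control arrays 1, 3 or 4. *Aqp7* was at 7.90, 7.65, 7.82 and 7.64 in *Tbx1 LOF* arrays 1 to 4, 7.10, 6.99, 7.16 and 7.28 in Tbx1 control, 7.64, 7.55, 7.45 and 7.74 in rescue and 7.20, 7.39, 7.15 and 7.25 in rescue control. Mutants lay above controls in every array of both experiments, with 0.62 ± 0.08 in *Tbx1 LOF* (limma, adjusted p = 0.0128) and 0.35 (interval 0.18 to 0.52) in rescue (unadjusted p = 0.000469). *Tecrl* had 0.80 ± 0.13 (adjusted p = 0.028) and 0.44 (interval 0.17 to 0.70, unadjusted p = 0.00295), also without overlap. *Scn7a*, a sodium channel, had 0.53 ± 0.11 and 0.33 (interval 0.10 to 0.56), and *Thbs4*, a matrix thrombospondin, had 0.86 ± 0.17 and 0.39 (interval 0.03 to 0.75). The rescue effects of *Aqp7*, *Tecrl* and *Scn7a* passed without any 1 array, and that of *Thbs4* did not in 6 such fits.

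The T-box letters AGGTGTGA, on either strand, stood in 0.964% of all 15563 promoter windows, in 2 of the 9 raised retained genes (22.2%) and in 0 of 61 raised normalized genes. The 2 were *Nppa* and *Aqp7*, whose windows are printed because they carry the letters, read on the opposite strand as the capitals. The match begins 250 bases before the start in *Nppa* (chr4:148000472-148000721, plus strand) and 70 bases before it in *Aqp7* (chr4:41048137-41048386, minus strand). With 9 genes this is a description of 2 sequences.
Nppa: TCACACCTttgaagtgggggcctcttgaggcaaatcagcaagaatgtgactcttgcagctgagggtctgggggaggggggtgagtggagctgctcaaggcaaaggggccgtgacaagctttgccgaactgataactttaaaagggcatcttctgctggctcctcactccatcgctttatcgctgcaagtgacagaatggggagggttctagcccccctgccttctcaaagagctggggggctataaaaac
Aqp7: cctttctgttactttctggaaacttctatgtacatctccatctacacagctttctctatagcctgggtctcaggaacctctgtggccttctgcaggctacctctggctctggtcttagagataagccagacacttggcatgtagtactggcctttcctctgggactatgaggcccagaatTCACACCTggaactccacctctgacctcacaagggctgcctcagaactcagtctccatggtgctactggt

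The lowered and normalized genes were of several kinds. *Cldn1*, a tight junction claudin of epithelia, had -0.62 ± 0.12 in *Tbx1 LOF* and 0.05 (interval -0.21 to 0.31) in rescue, a difference of -0.67 ± 0.17 (unadjusted p = 0.00133). *Cyp26c1*, an enzyme that degrades retinoic acid, had -0.51 ± 0.13 and 0.09 (interval -0.19 to 0.36), a difference of -0.59 ± 0.19 (unadjusted p = 0.00562). *Rtn1*, a reticulon of neural tissue, and *Adh1*, an alcohol dehydrogenase, differed by -0.54 ± 0.18 and -0.42 ± 0.16. These 4 differences passed without any 1 array. For each of them Tbx1 control was above rescue control, by 0.50, 0.27, 0.34 and 0.20. Those of *Lrrn1* (-0.75 ± 0.32) and *Fst* (-0.52 ± 0.24) did not pass in 9 and 11 of the 16 fits.

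Only 2 genes met the criteria for overshooting, and the rescue call of both rested on single arrays. *Zic2*, a zinc finger factor of dorsal neural tube and neural crest, was at 7.60, 9.24, 7.91 and 8.16 in *Tbx1 LOF* arrays 1 to 4, 9.17, 9.18, 9.07 and 8.88 in Tbx1 control, 8.77, 8.60, 8.81 and 8.60 in rescue and 7.90, 7.54, 8.37 and 8.50 in rescue control. Rescue stood above its controls in every array, while *Tbx1 LOF* overlapped its controls. The effects were -0.85 ± 0.26 in *Tbx1 LOF* and 0.62 (interval 0.07 to 1.17) in rescue (unadjusted p = 0.0306), with a difference of -1.47 ± 0.37 (unadjusted p = 0.00104). Tbx1 control was above rescue control by 1.0, and all 4 rescue arrays lay below all 4 Tbx1 control arrays. Without rescue arrays 1 or 3 or rescue control arrays 1 or 2 the rescue effect did not pass. *Prl8a2*, a placental prolactin family gene, was at 9.26, 8.85, 8.04 and 8.35 in *Tbx1 LOF* arrays 1 to 4, 7.26, 8.11, 8.16 and 7.63 in Tbx1 control, 6.46, 6.46, 6.54 and 6.36 in rescue and 7.90, 6.78, 6.62 and 7.04 in rescue control. Rescue lay below its controls in every array, and the lowest *Tbx1 LOF* array overlapped Tbx1 control. The effects were 0.83 ± 0.27 in *Tbx1 LOF* and -0.63 (interval -1.21 to -0.05) in rescue, with a difference of 1.46 ± 0.38 (unadjusted p = 0.00149). Its rescue effect did not pass without rescue arrays 1, 2 or 4 or rescue control arrays 1 or 4.

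*Zic1*, *Olig2*, *Nkx2-9*, *Fabp7* and *Foxd1* had opposite signs in the same way as *Zic2*, with differences of -1.10 ± 0.44, -0.89 ± 0.42, -1.37 ± 0.57, -0.95 ± 0.42 and -0.82 ± 0.37. These are genes of neural tube, floor plate, radial glia and mesenchyme. None of the 5 passed in either experiment alone, and their differences did not pass in 4, 12, 6, 9 and 8 of the 16 fits. Tbx1 control exceeded rescue control by 0.95, 0.89, 1.23, 0.30 and 0.66. Beside them, the summed level of 4 neural tube markers was 10.38 to 11.41 in *Tbx1 LOF*, 10.85 to 11.20 in Tbx1 control, 10.74 to 11.01 in rescue and 10.61 to 10.93 in rescue control. Of 21 neural tube genes, *Olig2* and *Dbx1* passed as lower for the difference, 18 lay below 0, and the median effects were -0.14 and 0.11. In the same fit 0.792% of all genes passed as lower for the difference, and 10376 of 19938 lay above 0. Of the 21, 12 passed as lower without *Tbx1 LOF* array 2, without rescue control array 4, 4 did, and in 10 of the other such fits 1 did. The part of neural tissue in these values was not tested.

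**Figure D5:**
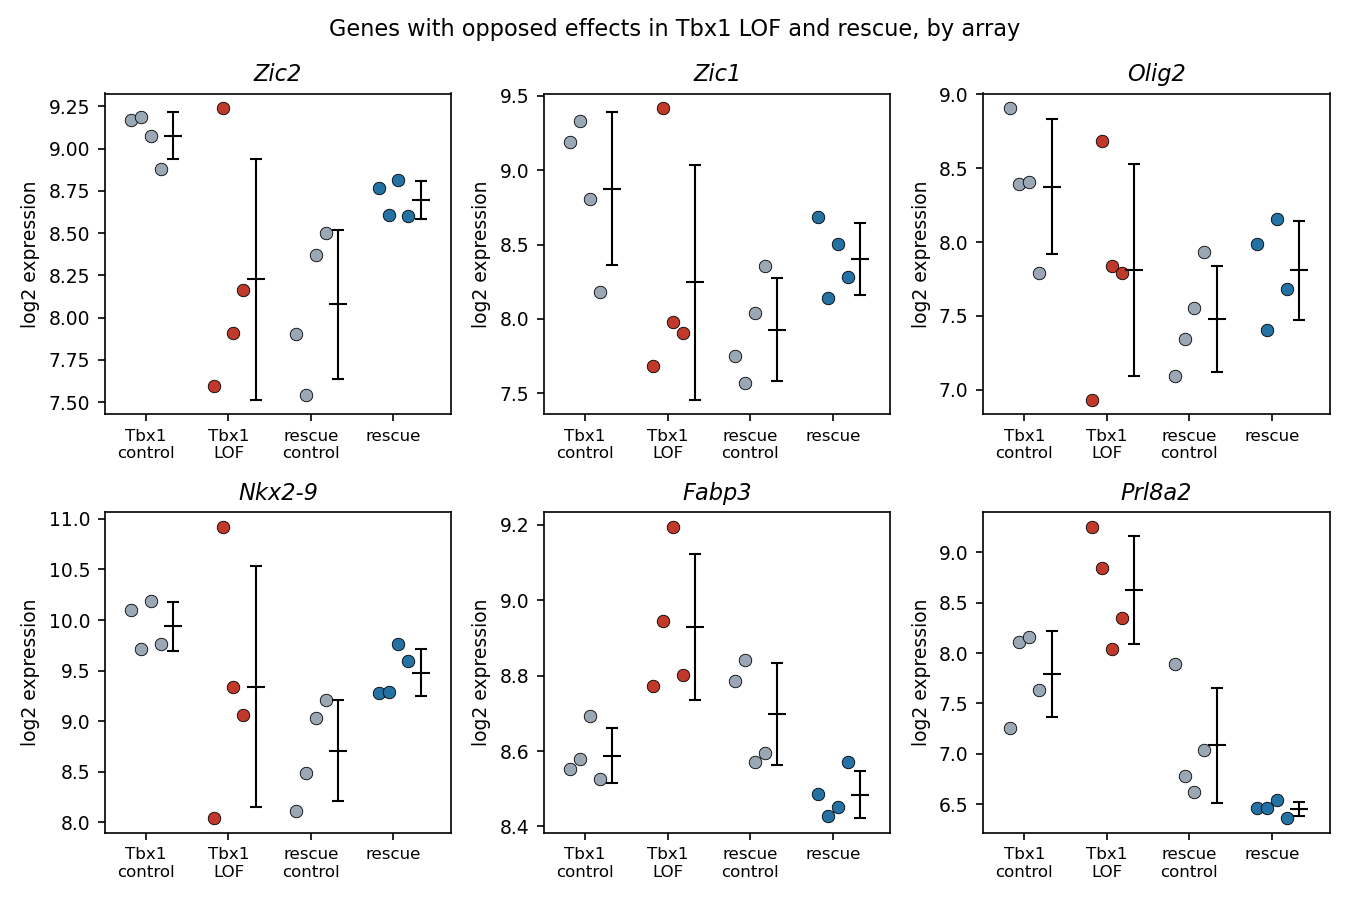
Log2 expression in every array of 6 genes whose mean effects had opposite signs in *Tbx1 LOF* and rescue, with the mean ± SD of each group of 4. Rescue arrays of *Zic2* and *Nkx2-9* lie above their controls and those of *Fabp3* and *Prl8a2* below, and the mean of Tbx1 control lies above that of rescue control for *Zic2*, *Zic1*, *Olig2* and *Nkx2-9*.

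A pair of hairpin genes of the miR-17-92 cluster, which encodes microRNAs active in progenitor growth, also differed between the experiments. *Mir18* was at 8.90, 8.97, 9.23 and 9.55 in *Tbx1 LOF* arrays 1 to 4, 9.23, 9.09, 9.68 and 9.54 in Tbx1 control, 9.40, 9.06, 9.71 and 9.37 in rescue and 8.84, 9.09, 8.72 and 9.01 in rescue control, with -0.23 ± 0.16 in *Tbx1 LOF* and 0.47 (interval 0.14 to 0.81) in rescue (unadjusted p = 0.00839), a difference of -0.70 ± 0.22 (unadjusted p = 0.00637). *Mir19a* had -0.25 ± 0.14 and 0.41 (interval 0.11 to 0.71, unadjusted p = 0.0112), a difference of -0.66 ± 0.20 (unadjusted p = 0.00483), and its rescue effect did not pass without rescue control array 3. Rescue overlapped its controls for both. All 6 measured entries of the cluster, chosen after their values were seen, had a difference below 0 and a rescue effect above 0. The smallest difference was that of *Mir17*, at -0.27. They derive from 1 transcript and are not independent. Probes of this array read the hairpin or its precursor, and levels of the mature microRNAs were not measured. Tbx1 control was above rescue control by 0.47 and 0.62. The mature sequences (RefSeq, GRCm38.p6) are shown because these 2 entries carry the largest differences. Capitals mark the seed, bases 2 to 8, which the 2 do not share. They lie at chr14:115043867-115043889 and chr14:115044048-115044070 on the plus strand.
miR-18a-5p: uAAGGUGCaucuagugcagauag
miR-19a-3p: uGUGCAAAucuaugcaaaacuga

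Of 19 measured genes of liver, gut and mesothelium, 8 were higher and 0 lower in *Tbx1 LOF*, 0 in rescue, and 7 were higher for the difference, *Ttr* and *Rbp4* (carriers of thyroid hormone and retinol), *Apoa1* and *Apom* (apolipoproteins), *Fgg* (fibrinogen γ), *Hnf4a* (an endodermal factor) and *Wt1* (a factor of mesothelium). The difference was above 0 in 18 of the 19, with medians of 0.27 and -0.02. Of all genes, 2.88% were higher and 2.01% lower in *Tbx1 LOF*, 0.476% were higher in rescue and 1.53% for the difference. The difference was above 0 in 10376 of all 19938 genes. *Ttr* was at 10.08, 9.43, 8.51 and 9.99 in *Tbx1 LOF* arrays 1 to 4, 8.30, 8.92, 7.90 and 7.55 in Tbx1 control, 7.40, 7.76, 8.15 and 7.80 in rescue and 7.39, 7.52, 7.74 and 7.80 in rescue control. The highest *Tbx1 LOF* arrays stood far above every other array, and the lowest overlapped Tbx1 control. The effects were 1.34 ± 0.30 and 0.16 (interval -0.48 to 0.81), a difference of 1.17 ± 0.43 (unadjusted p = 0.0145), and *Rbp4* had 0.91 ± 0.27 and -0.07 (interval -0.64 to 0.50), a difference of 0.98 ± 0.38. The summed level of the 4 fixed liver and gut markers was 9.70 to 11.15 in *Tbx1 LOF*, 9.07 to 10.18 in Tbx1 control, 8.99 to 9.65 in rescue and 8.95 to 9.30 in rescue control, and *Alb*, the defining liver marker, lay at percentile 17.2 of all genes. Embryonic erythroid genes followed the same direction, with 13 of 13 differences above 0 and medians of 0.21 and -0.01, although only *Klf1*, an erythroid factor, passed, and 0 to 4 did in the fits that left out an array. The part of neighbouring tissue in the difference was not tested. Without Tbx1 control array 3, 4 of the 19 passed, and 12 did with array weights. In 1 of the 19 genes every *Tbx1 LOF* array lay above every control, as in 1.32% of all genes.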

How the data were processed

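The deposited values are log2 expression values of Affymetrix Mouse Gene ST 1.0 probe sets, which the authors made by RMA in oligo (no version is given in the sources used here). The methods report clear batch effects, most of all in the *β-catenin* loss and *Tbx1 LOF* data, and name ComBat and a batch block. Neither the batch of each array nor whether the deposited values are batch-corrected is stated. Of 35556 probe sets, 21789 had 1 gene symbol, 1621 several and 12146 none. Those with 1 symbol were averaged per gene, giving 19938 genes, of which 999 had more than 1 probe set. A mean per group was fitted to the 16 arrays with limma 3.58.1 in R 4.3.3 (residual df 12), with p-values adjusted by Benjamini-Hochberg over all genes. The self-test on simulated data, with independent noise and set differences larger than most of those reported here, recovered the set differences. Smaller differences were not simulated. Figures used Python 3.11.15 and matplotlib 3.10.9.

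Members and gene lists were chosen with earlier results of these data known. Genes were named by 1 rule: the largest differences, up to 8 genes per class with the largest *Tbx1 LOF* effect, the targeted genes, the genes that the study's text discusses for rescue, and those of 42 lists (870 of 932 entries measured). Exceptions are stated where they occur. Arrays hold pooled embryos, and p-values measure only the spread between them. The number of arrays limits the precision.

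Deviations of same-numbered mutant and control arrays had correlations of 0.396, 0.157, 0.202 and 0.494 in the Tbx1 experiment. In rescue these were -0.064, 0.096, 0.256 and 0. The replicate block used the array numbers in the sample titles, and the labels do not say that same-numbered arrays are pairs. Only 1 of 4 Tbx1 arrays correlated best with its own number, and arrays 1 to 3 correlated better with another (0.403, 0.407 and 0.431). Centred over the 16 arrays, *Tbx1 LOF* arrays 1 and 2 correlated with Tbx1 control arrays 1 and 2 at 0.314 to 0.484. For arrays 3 and 4 this was -0.142 to 0.252. Whether these groups are batches was not tested. The alternatives were 10 other fits and leaving out each of the 16 arrays. Motifs were searched in 15563 RefSeq windows of 250 bases before the gene start.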

Additional observations from a re-analysis of the deposited data

Results flagged for a closer look

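Of 396 tests for a single array far from the other 3 of its group, 12 found one. Chance gives about 1 in 20, so fewer were found than this rate. For 8 genes, rescue control array 2 was low for *Foxd1* (8.31 against 9.37 to 9.48 in the others), Tbx1 control array 4 was low for *Slc8a1* (8.22 against 8.86 to 8.94), and rescue control array 4 was low for *Adh1* (8.88 against 9.26 to 9.28). Rescue array 2 was high for *Chrdl1* (8.75 against 8.56 to 8.59) and *Etv2* (8.92 against 8.73 to 8.76). Tbx1 control array 2 was high for *Tbx5* (10.57 against 10.24 to 10.28) and *Zfpm2* (8.66 against 8.31 to 8.35), and *Tbx1 LOF* array 1 was high for *Gata6* (12.36 against 11.76 to 11.84).

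Among means of gene lists, centred per gene on the log2 scale, rescue control array 2 was high for natriuretic peptides and chamber genes (0.06 against -0.29 to -0.24) and for canonical Wnt feedback and target genes (0.06 against -0.01 to 0). Rescue array 1 was low for immediate early and heat shock genes (-0.07 against 0 in the others). Rescue control array 1 was low for sex-linked genes (-0.48 against 0.32 to 0.46). In *Tbx1 LOF* arrays 1 to 4 the mean of these 4 genes was -0.20, -0.41, -0.75 and -0.18. In Tbx1 control it was 0.66, 0.38, 0.22 and 0.13, so the 2 groups did not overlap. Rescue arrays 1 to 4 were at -0.35, 0.34, -0.84 and 0.37 and overlapped their controls. The median effects were -0.72 in *Tbx1 LOF* and -0.41 in rescue, and 0 of the 4 genes passed at unadjusted p under 0.05. No cause was tested for any of these.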

How the results depend on the processing

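All 3 measures that rest on medians of chosen or listed genes were read under 10 other fits and 16 leave-outs. Leaving out 1 array gave 0.09 to 0.21 for the median rescue effect of raised genes, 0.21 to 0.37 for the median sarcomere difference, and -0.20 to 0.04 for the median rescue effect of lowered genes, whose sign turned without *Tbx1 LOF* array 2 (0.0417). Leave-outs gave 39 to 113 raised normalized genes, 7 to 40 raised retained, 6 to 65 lowered normalized and 10 to 16 lowered retained, 10 to 38 higher and 5 to 50 lower genes for the difference at unadjusted p under 0.05 and 1.5-fold, 1 to 46 higher and 0 to 29 lower genes in *Tbx1 LOF*, 0 to 1 in rescue and 0 to 1 for the difference after adjustment. With all 24 arrays in the fit, 7 genes were higher for the difference, 1 higher and 5 lower in *Tbx1 LOF*, and 16 raised genes were normalized and 4 retained. Array weights gave 39 and 29 for the difference, 9 higher in *Tbx1 LOF*, and 126 normalized and 28 retained raised genes. With the replicate block in the Tbx1 experiment, *Tbx1 LOF* had 69 higher and 19 lower genes and 14 raised retained, with the replicate block in both experiments 37, 7 and 21, and with a term for arrays 1 and 2 against 3 and 4 it had 44, 18 and 15. Higher and lower genes in *Tbx1 LOF* numbered 17 and 8 without dim genes, 29 and 13 after median centring, 26 and 10 after quantile normalization and 26 and 8 with trend and robust moderation. Among the named genes no direction was reversed, 185 settings ended a call and 41 gave one. The cause of these shifts was not tested. Array number and the spread between arrays limited the precision.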

Other observations

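Counts at unadjusted p under 0.05 follow for some lists not described above. Among all genes 1.53% passed as higher and 0.792% as lower for the difference. In *Tbx1 LOF* these shares were 2.88% and 2.01%, and in rescue 0.476% and 1.11%. Of 16 natriuretic peptide and chamber genes, 8 were higher and 1 lower in *Tbx1 LOF*. In rescue 3 were higher and 1 lower, and for the difference 2 and 1. For 16 pharyngeal endoderm markers these counts were 3 and 1, 1 and 1, and 2 and 1. Of 18 neural crest markers, 1 was higher and 1 lower for the difference. Of 21 glycolysis and hypoxia genes, 4 were higher in *Tbx1 LOF*, 0 in rescue and 2 for the difference. All 16 cholesterol synthesis genes had a difference above 0, with medians of 0.08 in *Tbx1 LOF* and -0.01 in rescue, and 0 passed. Of all 19938 genes, 10376 had a difference above 0. Among 35 measured mouse genes of the region homologous to 22q11, 2 were lower in *Tbx1 LOF*, 1 in rescue and 1 for the difference. The targeted gene *Tbx1* is in this list. It was 1 of the 2, and the only one in rescue and for the difference. Of 16 semaphorins, plexins and neuropilins, 1 was lower in *Tbx1 LOF*, 3 in rescue and 0 for the difference.

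Of the 78 raised normalized genes, 39 belonged to a list and 39 to none. The 61 raised unresolved genes all had a difference above 0 and the 16 lowered unresolved genes all had one below 0, as they had been chosen by the *Tbx1 LOF* effect. The median residual SD was 0.27 for raised unresolved genes, 0.20 for raised normalized genes and 0.11 over all genes. Across 19938 genes, which are not independent replicates, the effects in *Tbx1 LOF* and rescue correlated with r = 0.17 and rho = 0.06, as a description.

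Chosen by the same criteria in the rescue arrays, 10 genes were higher and 4 lower. Among them *Itga4* (an integrin subunit), *Mir18* and *Mir19a* were higher in rescue and were not among the genes chosen in *Tbx1 LOF*.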
